A study of Mus musculus with 30 samples.

Results

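Skeletal muscle myosin is built from 2 heavy chains, each carrying 1 essential and 1 regulatory light chain, and the isoforms of these chains are encoded by separate genes. The genes described here are the 10 rows of the expression table whose symbol, read without regard to case, was MYH1, MYH2, MYH3, MYH4, MYH7, MYH8, MYL1, MYL2, MYL3 or MYL4, out of 21073 genes in the table. By their known roles they fall into 4 fast genes (the heavy chains MYH1, MYH2 and MYH4 and the essential light chain MYL1), 3 slow genes (the heavy chain MYH7, the regulatory light chain MYL2 and the essential light chain MYL3) and 3 developmental genes (the embryonic heavy chain MYH3, the perinatal heavy chain MYH8 and the embryonic and atrial essential light chain MYL4). MYL1 yields 2 products from alternative start sites, which share its single row in the table.

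The heavy chain carries the motor that hydrolyses ATP and pulls on actin, and its isoform sets much of a fibre's speed: MYH4 marks the fastest fibres (type IIB), MYH1 and MYH2 mark types IIX and IIA, and MYH7 marks slow type I fibres. Light chains wrap the lever arm of the motor and tune its speed and calcium sensitivity. Embryonic and perinatal isoforms are used before and around birth and return for a time in regenerating or denervated fibres. MYH7, MYL2 and MYL3 are also genes of the heart ventricle.

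RNA was sequenced from the extensor digitorum longus (EDL), a fast hindlimb muscle, of female SJL/J mice with experimental autoimmune encephalomyelitis (EAE), a model of multiple sclerosis. EAE mice were immunized with the [Ser140]-PLP139-151 myelin peptide in complete Freund's adjuvant (CFA), given under the skin without pertussis toxin. The other groups were unimmunized mice (Ctrl) and mice given ovalbumin in CFA (OVA), which share the adjuvant with the EAE mice but not the myelin peptide. Muscle was taken on day 14, the peak of disease, or on day 40, in remission, so that there were 6 groups of 5 mice, and each of the 30 mice was sampled once. All groups carried the SJL/J background, a strain known for a spontaneous dysferlin mutation that gives it a slowly progressing muscle disease, and the age of the mice is not given in the sources used here. Values are given below in RPKM (reads scaled to transcript length and library size), from an estimated 18000000 to 31300000 reads on genes per mouse. The deepest library was that of EAE mouse 3 on day 14, and the median was 21600000.

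Among the 6 heavy chain genes, all but MYH7 lie close together on the forward strand of chromosome 11, in the order MYH3, MYH2, MYH1, MYH4 and MYH8, in a cluster that also holds MYH13. The stretch with these 5 genes runs from the start of MYH3 at 67078300 to the end of MYH8 at 67308634 (GRCm38). MYL4 lies on the same chromosome at chr11:104550663-104595753, MYH7 at chr14:54970684-54994626, MYL1 at chr1:66924295-66945404, MYL2 at chr5:122100951-122113472 and MYL3 at chr9:110741861-110769798. The upstream sequences of the 4 neighbours from MYH2 to MYH8 are shown because these genes, whose levels in this muscle differed widely, share the same 2 short runs of bases. The sequences are RefSeq promoters on GRCm38.p6, 5′ to 3′ on the forward strand. The capitals mark these 2 runs, which all 4 share exactly, and shorter shared stretches are left in lower case.
MYH2 (chr11:67170844-67170925): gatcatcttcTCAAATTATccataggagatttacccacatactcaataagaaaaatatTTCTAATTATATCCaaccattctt
MYH1 (chr11:67199876-67199965): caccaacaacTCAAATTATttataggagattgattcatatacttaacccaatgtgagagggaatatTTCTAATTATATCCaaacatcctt
MYH4 (chr11:67237615-67237677): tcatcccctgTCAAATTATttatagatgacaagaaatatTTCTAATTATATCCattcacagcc
MYH8 (chr11:67277010-67277093): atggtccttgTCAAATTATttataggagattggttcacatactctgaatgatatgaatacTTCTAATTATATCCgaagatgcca
The longer run, TTCTAATTATATCC, was found in the 250 upstream bases of 4 of 32851 promoters, and these were the 4 genes shown. The shorter run, TCAAATTAT, was found in 57 promoters of 54 genes, these 4 included. Neither run was in the upstream window of MYH3, the embryonic gene that precedes them.

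The upstream sequence of MYL3 is shown because MYL3 was the one of these 10 genes that differed most at the peak of EAE. It covers chr9:110763428-110763645 on the forward strand, from 250 to 33 bases before the RefSeq start. The capitals mark an E-box (CANNTG), an MCAT element (CATTCC) once on each strand, and a CArG box, motifs named for muscle gene promoters.
MYL3: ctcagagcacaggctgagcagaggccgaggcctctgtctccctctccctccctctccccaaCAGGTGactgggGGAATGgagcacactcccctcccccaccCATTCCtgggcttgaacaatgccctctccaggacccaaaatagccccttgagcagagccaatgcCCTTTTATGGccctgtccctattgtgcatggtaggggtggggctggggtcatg
Searched on both strands, an E-box was in 66.2% of all promoters, an MCAT element in 12.6% and a CArG box in 1.47%. Among the 10 myosin genes, 7 held an E-box, 5 an MCAT element (MYH1, MYH4, MYH7, MYL1 and MYL3) and 2 a CArG box (MYH4 and MYL3). The windows of MYL2 and MYL4 are placed by RefSeq starts that may not be the ones used in this muscle, and MYL2 is among the 7. A match in these windows is a description of letters and not a site of binding.

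All 10 genes were expressed in every mouse, and MYH4 was the leading heavy chain throughout. On day 14 in Ctrl mice the mean levels per length were, from high to low, 5706 RPKM for MYH4, 2552 for MYL1, 1664 for MYH1, 543 for MYL2, 349 for MYH2, 264 for MYL3, 102 for MYH7, 28.9 for MYL4, 27.3 for MYH8 and 4.93 for MYH3. MYH4 exceeded MYL1 and MYH8 exceeded MYH3 in 30 of 30 mice. MYL4 exceeded MYH8 in 13 of 30, so that these neighbours were not separated beyond the spread between mice. In EAE mice on day 14, MYL3 exceeded MYH7 in 2 of 5 mice, against 5 of 5 in each other group. MYL2 exceeded MYH2 in 1 of 5 EAE and 5 of 5 Ctrl mice of that day, but also in only 2 of 5 OVA mice on day 40. MYL1 exceeded MYH1 in 2 of 5 EAE mice and in 4 of 5 Ctrl and 4 of 5 OVA mice of day 14.

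**Figure D1:**
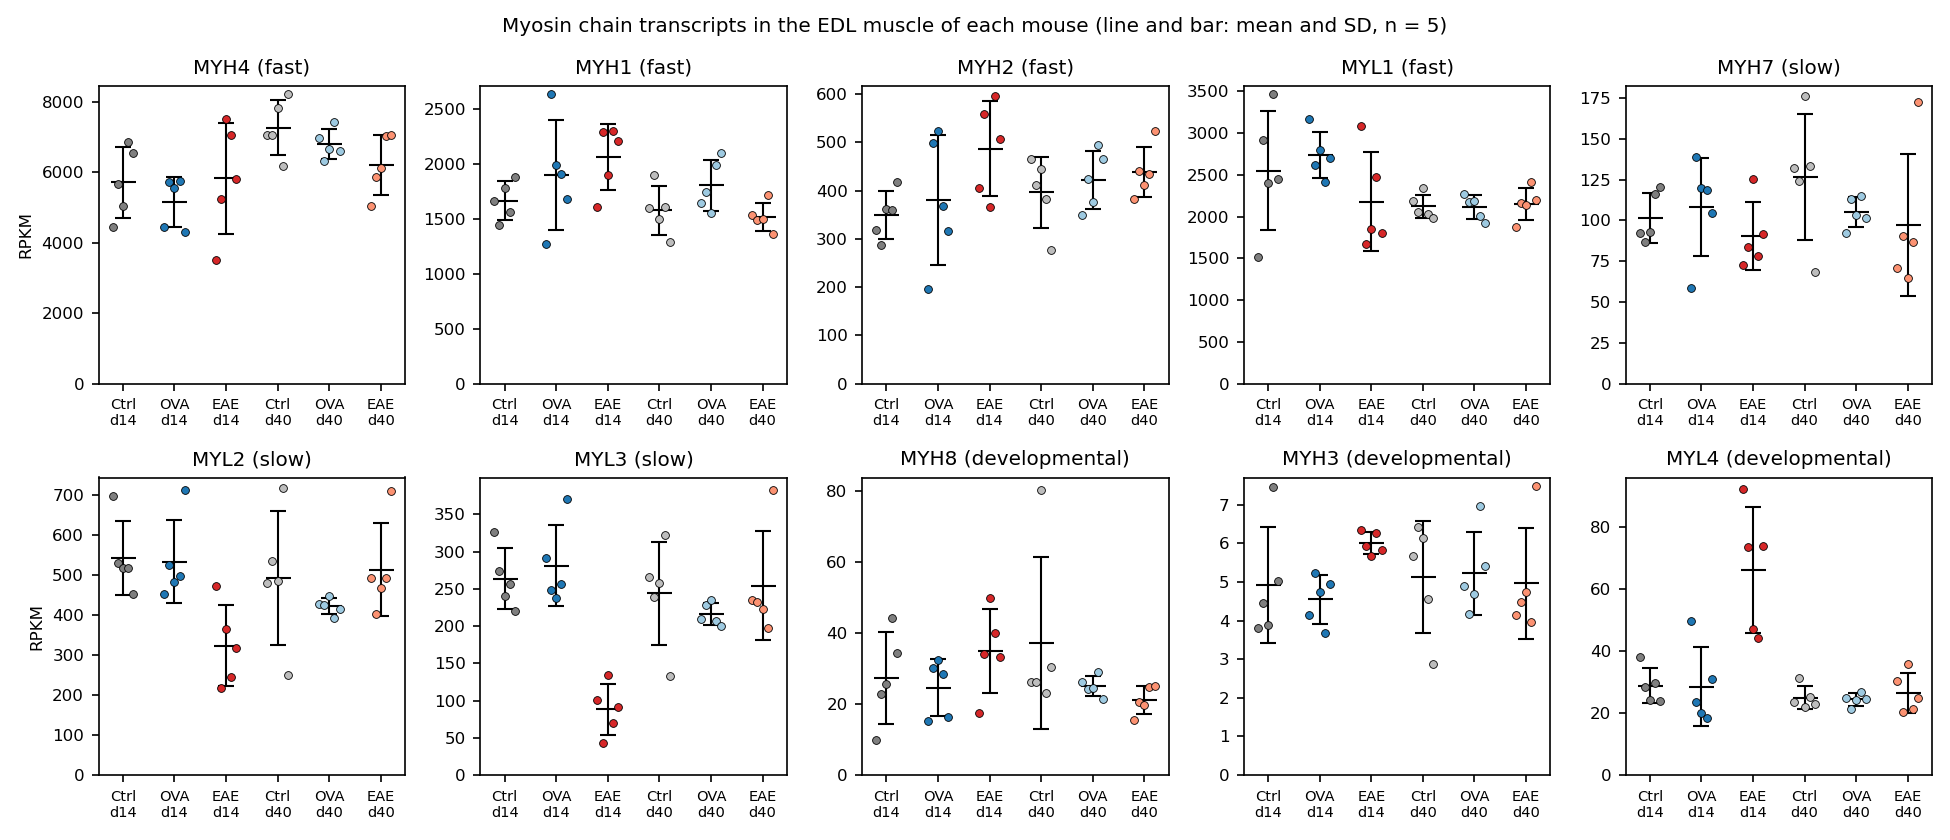
Level of each of the 10 myosin genes (RPKM, 1 panel a gene with its own axis) in the 6 groups; each point is 1 mouse, and the bars give the mean and SD of 5 mice. MYL3 and MYL4 on day 14 are the panels in which the EAE mice stand apart from the Ctrl mice: 43.0 to 135 RPKM against 220 or more for MYL3, and 44.2 to 92.3 against at most 38.1 for MYL4.

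The heavy chain make-up was that of a fast muscle in every group. As a share of the summed RPKM of the 6 heavy chains, MYH4 made up 62.5% to 83.1% over the 30 mice, MYH1 13.0% to 29.3%, MYH2 2.81% to 7.21% and the slow MYH7 0.690% to 1.89%. The developmental heavy chains were minor, at 0.152% to 0.802% for MYH8 and 0.0291% to 0.113% for MYH3. MYH3 still rested on an estimated 415 to 1074 reads per mouse. Heavy chain transcripts resemble one another: 26.7% of the 50-base stretches of MYH1 and 26.9% of those of MYH2 occurred in another myosin transcript, as did 22.2% of those of MYH7, all in its heart paralog MYH6. In stretches of 150 bases the shares were 2.49%, 2.06% and 5.43%, and the light chains shared none at either length. Levels of single heavy chains are therefore less certain than those of light chains, as the treatment of shared reads is not given in the sources used here. Reads of MYH1 and of the antisense transcript that overlaps it also cannot be told apart without the counting strand, which is not stated.

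**Figure D2:**
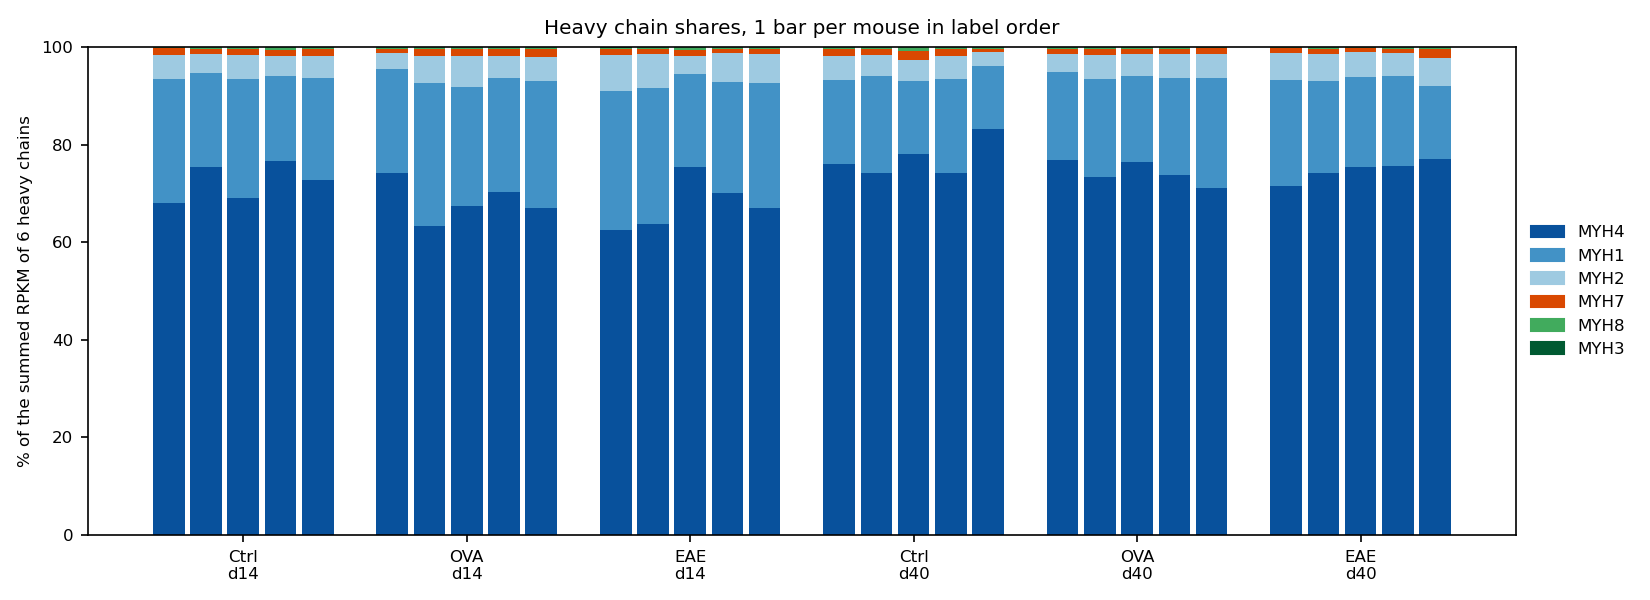
Share of each of the 6 heavy chain genes in their summed RPKM (percent, stacked from 0 to 100), with 1 bar for each of the 30 mice, ordered by group. MYH4 is the largest part of every bar, at 62.5% to 83.1%, and MYH3, MYH7 and MYH8 are thin bands in every group.

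At the peak of disease 3 of the 10 genes differed between EAE and Ctrl mice, and all 3 were light chains: the slow MYL3 and MYL2 fell and the developmental MYL4 rose. The same 3 genes were called against OVA mice, a comparison that uses the same 5 EAE mice and is therefore not a second, separate test. A gene was called when its Benjamini-Hochberg adjusted p in limma was below 0.05 and its fold change above 1.5. By this rule 26.4% of 8771 genes tested were called between EAE and Ctrl mice and 20.3% of 8674 between EAE and OVA mice, so that 3 of 10 is near the share over all genes. In one direction, 14.6% of genes were called higher and 11.8% lower against Ctrl, and 11.0% and 9.28% against OVA, beside 1 of 10 and 2 of 10 here. Against Ctrl this was 1282 genes higher and 1036 lower, a split that turned to 938 and 1286 when libraries were scaled by median ratios, while the calls among the 10 genes did not change. The median log2 fold change was 0.15 over the 10 genes and 0.11 over all genes tested against Ctrl, and 0.14 and 0.11 against OVA.

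MYL3, the essential light chain of slow fibres, differed most of the 10. Ctrl mice on day 14 had 220, 240, 257, 274 and 327 RPKM, and OVA mice had 238, 249, 256, 291 and 371. EAE mice had 43.0, 70.2, 91.4, 101 and 135, so that the highest EAE mouse was below the lowest mouse of either other group. Groups did not overlap for 32.2% of all genes tested against Ctrl and for 26.2% against OVA. The log2 fold change was −1.67 (SE 0.23, adjusted p = 5.3e-05) against Ctrl, a 3.18-fold lower level, and −1.75 (SE 0.23, adjusted p = 4.04e-05) against OVA, a 3.37-fold lower level. In bulk muscle, fewer slow fibres and less RNA per slow fibre cannot be told apart.

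MYL2, the slow regulatory light chain, fell less. The levels were 453, 517, 518, 529 and 698 RPKM in Ctrl mice and 452, 482, 498, 525 and 713 in OVA mice. In EAE mice they were 219, 245, 318, 364 and 472, with 4 of 5 below every Ctrl and every OVA mouse and 1 inside both ranges. MYL2 was 1.72-fold lower than in Ctrl (log2 fold change −0.79, SE 0.19, adjusted p = 0.00369) and 1.69-fold lower than in OVA (−0.76, SE 0.19, adjusted p = 0.0059).

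MYH7, the heavy chain of the same slow fibres, did not pass the test. Its levels were 86.7 to 120 RPKM in Ctrl mice, 58.7 to 139 in OVA mice and 72.4 to 125 in EAE mice, and the groups overlapped. The log2 fold change was −0.19 (95% interval −0.62 to 0.25) against Ctrl and −0.23 (−0.66 to 0.20) against OVA, intervals that reach from about 1.5-fold lower to a small rise. Corrected for exon length, the log2 fold change of MYH7 was −0.45 against Ctrl and −0.44 against OVA, and over all alternatives its lowest adjusted p was 0.0252 and 0.034, with the change below the fold threshold in each. Within single mice, MYL3 but not MYL2 separated from MYH7. MYL3 per MYH7 was 0.514 to 1.39 in EAE mice on day 14 and at least 1.46 in each of the other 25 mice. MYL3 per MYL2 was 0.196 to 0.370 in the same 5 mice and 0.402 to 0.644 in the other 25. MYL2 per MYH7 overlapped, at 2.62 to 6.51 in EAE mice, 3.76 to 7.55 in Ctrl mice and 3.79 to 7.71 in OVA mice of day 14. No test was made of these ratios, which were formed after the levels had been seen.

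MYL4, an essential light chain of embryonic muscle and of the heart atria, was higher at the peak. Ctrl mice had 24.0, 24.2, 28.6, 29.7 and 38.1 RPKM, OVA mice 18.5, 20.1, 23.5, 31.0 and 49.7, and EAE mice 44.2, 47.3, 73.6, 73.9 and 92.3. All 5 EAE mice were above every Ctrl mouse, and 3 of 5 were above every OVA mouse, 1 OVA mouse lying inside the EAE range. MYL4 rose 2.23-fold against Ctrl (log2 fold change 1.16, SE 0.26, adjusted p = 0.00181) and 2.38-fold against OVA (1.25, SE 0.26, adjusted p = 0.00132). MYL3 per MYL4, the ratio of a slow to a developmental essential light chain, had a median of 9.17 in Ctrl and 11.8 in OVA mice on day 14 and 1.24 in EAE mice.

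**Figure D3:**
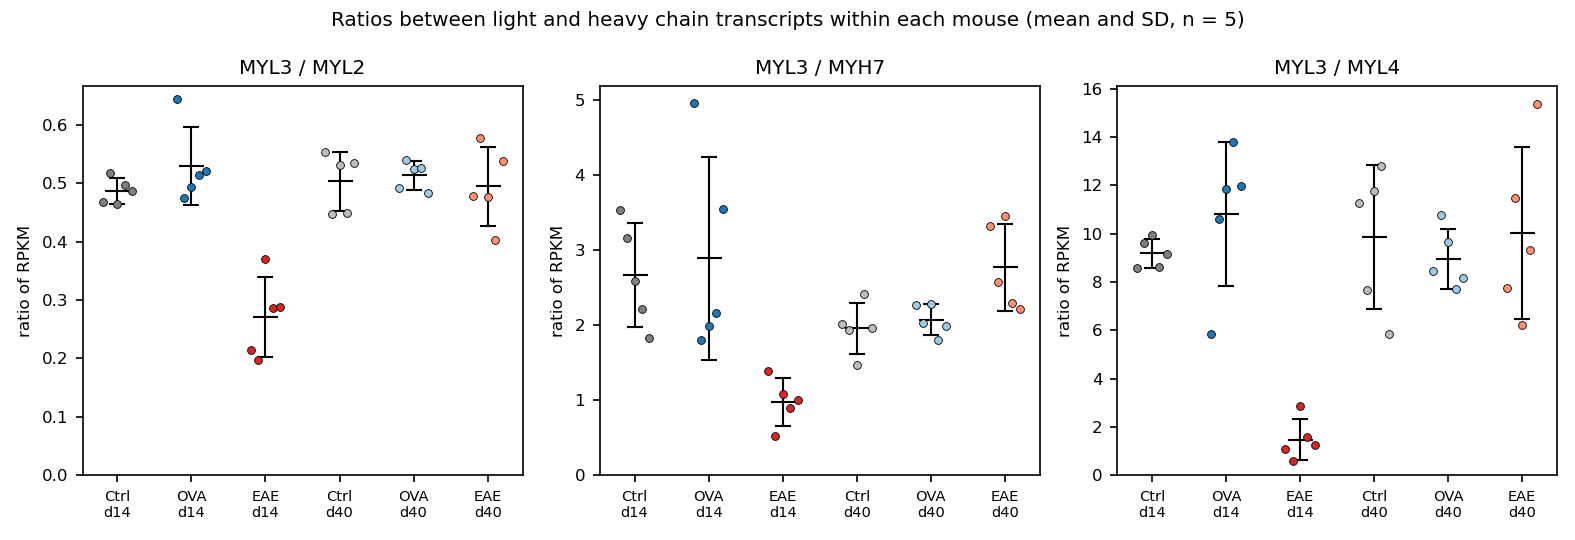
Ratios of RPKM within each mouse for MYL3 to MYL2, MYL3 to MYH7 and MYL3 to MYL4, 1 point a mouse, in the 6 groups. In each of the 3 panels the 5 EAE mice on day 14 lie below the other 25 mice.

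MYL1, the fast essential light chain, remained the main essential chain by level. It made up a median of 90.1% of the summed RPKM of MYL1, MYL3, MYL4 and MYL6B in Ctrl mice, 89.8% in OVA mice and 90.7% in EAE mice on day 14. MYL3 had a median share of 8.49% in Ctrl mice and 3.00% in EAE mice, and MYL4 of 0.884% and 2.75%. The level of MYL1 was 1521 to 3468 RPKM in Ctrl, 2409 to 3165 in OVA and 1670 to 3083 in EAE mice, with a log2 fold change of −0.22 (adjusted p = 0.398) against Ctrl and −0.36 (adjusted p = 0.174) against OVA.

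None of the fast heavy chains passed the test at the peak. MYH4 was at 5820 ± 1578 RPKM in EAE mice (SD, n = 5) and 5706 ± 1015 in Ctrl mice, with a log2 fold change of −0.00 (95% interval −0.41 to 0.41) against Ctrl and 0.14 (−0.27 to 0.55) against OVA. MYH1 had log2 fold changes of 0.30 (−0.06 to 0.66) and 0.15 (−0.21 to 0.51). MYH2 had the largest values of the 3, 0.47 (−0.01 to 0.95, adjusted p = 0.0981) and 0.41 (−0.07 to 0.89, adjusted p = 0.16). Both intervals of MYH2 and that of MYH1 against Ctrl do not leave out a 1.5-fold higher level. That of MYH1 against OVA ends at 1.42-fold.

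The developmental heavy chains did not pass either. MYH3, the embryonic chain, was at 5.67, 5.83, 5.92, 6.28 and 6.35 RPKM in EAE mice, above every OVA mouse (3.69 to 5.24) but inside the Ctrl range (3.81 to 7.46). EAE and OVA mice likewise did not overlap for 26.2% of all genes tested. The difference in MYH3 was 1.32-fold against OVA (log2 fold change 0.40, SE 0.16, adjusted p = 0.0522) and 1.25-fold against Ctrl (0.32, SE 0.16, adjusted p = 0.0982), both below the fold threshold. MYH8, the perinatal chain, varied more between mice, from 9.91 to 44.3 RPKM in Ctrl, 15.3 to 32.4 in OVA and 17.6 to 49.99 in EAE mice. The log2 fold change was 0.44 (95% interval −0.32 to 1.19) against Ctrl and 0.50 (−0.26 to 1.26) against OVA, so that more than a 2-fold higher level lies inside both intervals.

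**Figure D4:**
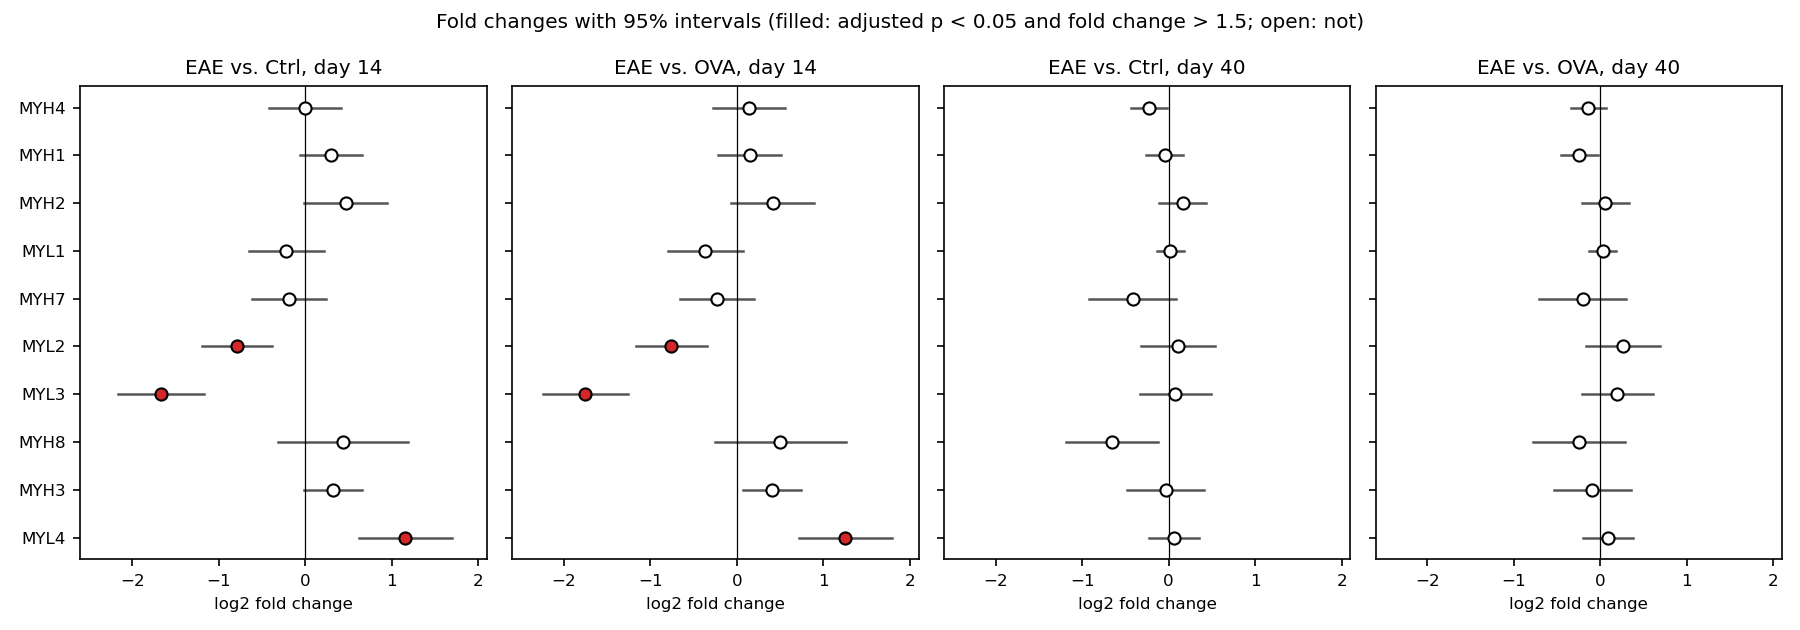
Log2 fold changes of the 10 myosin genes with 95% intervals for EAE against Ctrl and EAE against OVA on day 14 and day 40; filled points passed both thresholds. On day 14 the filled points are MYL2, MYL3 and MYL4, and on day 40 there are none.

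Ovalbumin in the same adjuvant left no called difference in these genes. Between OVA and Ctrl mice on day 14, the log2 fold changes of the 10 genes ran from −0.14 to 0.15, and limma called 0 of 10, with 0 at an unadjusted p below 0.05. Over all genes 0.142% of 8471 were called and 9.69% had an unadjusted p below 0.05. On day 40 the same comparison again gave 0 of 10, with 0 at an unadjusted p below 0.05, where over all genes 0.0% of 8706 were called and 3.12% had an unadjusted p below 0.05.

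On day 40 no myosin gene was called between EAE and Ctrl mice or between EAE and OVA mice, where 0.46% of 8691 and 0.209% of 8598 genes were called. MYL3 was at 198 to 383 RPKM in EAE mice, 133 to 322 in Ctrl mice and 201 to 235 in OVA mice, with log2 fold changes of 0.08 (95% interval −0.33 to 0.49) and 0.19 (−0.22 to 0.61). MYL2 had 0.11 (−0.32 to 0.53) and 0.26 (−0.17 to 0.69), and MYL4 had 0.06 (−0.23 to 0.35) and 0.09 (−0.20 to 0.38). The intervals of these light chains leave out differences of the size seen on day 14. The slow heavy chain MYH7 had −0.42 (−0.92 to 0.09) against Ctrl and −0.20 (−0.71 to 0.30) against OVA. Its intervals do not leave out a lower level of the size estimated on day 14. Before adjustment, limma gave p below 0.05 for 2 of 10 genes against Ctrl, MYH8 (log2 fold change −0.65, adjusted p = 0.117) and MYH4 (−0.23, adjusted p = 0.144), and for 1 against OVA, MYH1 (−0.24, adjusted p = 0.236), where 27.9% and 17.4% of all genes had one. Without Ctrl mouse 4 of day 40 MYH8 was called, with a log2 fold change of −0.78. The highest Ctrl mouse, at 80.3 RPKM, lay far above the other 4, at 23.2 to 30.4, and without that mouse the log2 fold change was only −0.33.

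The difference between EAE and Ctrl mice changed from day 14 to day 40 for the same light chains. In a model of all 30 mice, MYL3 changed by 1.74 on the log2 scale relative to Ctrl (SE 0.32, adjusted p = 1.07e-04) and by 1.95 relative to OVA (SE 0.32, adjusted p = 3.66e-05). MYL2 changed by 0.89 (SE 0.29, adjusted p = 0.0137) and 1.02 (SE 0.29, adjusted p = 0.00878). MYL4 changed in the other direction, by −1.10 (SE 0.30, adjusted p = 0.00457) and −1.17 (SE 0.30, adjusted p = 0.00408). Over all genes, 32.7% of 9013 and 21.8% of 8935 passed in these comparisons. MYH8 had −1.09 relative to Ctrl (SE 0.46, adjusted p = 0.0525) and was called when mice of the same number were treated as blocks, and −0.75 relative to OVA (adjusted p = 0.209).

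Within EAE mice, MYL3 was 3.01-fold higher on day 40 than on day 14 (log2 fold change 1.59, SE 0.23, adjusted p = 1.94e-06) and MYL2 1.62-fold higher (0.69, SE 0.21, adjusted p = 0.00704). MYL4 was 2.46-fold lower (−1.30, SE 0.22, adjusted p = 1.66e-05), and 21.1% of all genes were called. MYH1 had an adjusted p of 0.0135 but a log2 fold change of −0.43, below the fold threshold. Within Ctrl mice 0 of 10 genes were called between the days in limma, with 1 at an unadjusted p below 0.05 (MYH4, log2 fold change 0.36), against 9.37% of all genes called and 45.6% at that unadjusted p. Within OVA mice 0 of 10 were called, with 2 at an unadjusted p below 0.05 (MYH4, 0.41, and MYL1, −0.37), against 3.97% and 24.6% of all genes. MYL2 and MYL3 had −0.32 and −0.36 between the days in OVA mice and −0.20 and −0.16 in Ctrl mice. These uncalled values enter the changes of the EAE difference given above. The day cannot be told apart from what else differed between the mice killed on it, since each mouse was sampled once.

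In 2 mice of day 40 the slow genes lay together at an end of the range. EAE mouse 5 of day 40 had the highest level of its group for MYH7 (173 RPKM), MYL2 (710.3) and MYL3 (383), and Ctrl mouse 5 of day 40 had the lowest of its group (68.1, 249 and 133). The summed level of 6 other slow fibre markers was 2178 RPKM in the first and 793 in the second, the highest and the lowest of the 30 mice. On day 14 the same sum was 1173 to 2084 RPKM in Ctrl, 1179 to 1928 in OVA and 863 to 1423 in EAE mice. All 6 slow markers were above 3 RPKM in every group. Of these, 2 (TNNC1 and TPM3) were called lower in EAE mice in each comparison on day 14, 0 were called higher and 4 were not called. MYOZ2 had log2 fold changes of 0.46 against Ctrl and 0.38 against OVA, and ATP2A2 had 0.02 and −0.09. TNNI1 had −0.25 and −0.21, and TNNT1 had −0.38 and −0.33. The part of slow fibre content in the fall of MYL2 and MYL3 was not tested.

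Other genes of the sarcomere moved in both directions at the peak. Of 24 other sarcomeric myosin genes and thick filament partners, 22 were tested, 6 were called higher and 1 lower against Ctrl, and 5 higher and 1 lower against OVA, with medians of 0.29 and 0.33. MYOM3, a protein of the M-band that links thick filaments, rose by 2.36 and 2.11 on the log2 scale, from 10.1 ± 2.31 RPKM in Ctrl to 53.5 ± 17.5 in EAE mice (SD, n = 5). MYBPH, a myosin-binding protein, rose by 2.35 and 2.62, from 23.0 to 125 RPKM. MYH14, a non-muscle heavy chain in this list, rose by 1.78 and 2.02. TRIM63 (MuRF1), the ubiquitin ligase that acts on myosin heavy chain in wasting muscle, rose by 1.49 and 1.54, from 98.4 ± 17.6 to 297 ± 135 RPKM. MYLK2, the kinase that phosphorylates the fast regulatory light chain, fell by 1.29 against Ctrl (log2 fold change −1.29) and by 0.79 against OVA (−0.79). MYL6B, an essential light chain used in slow and non-muscle myosin, rose by 1.09 and 1.19. MYBPC1, another myosin-binding protein, rose by 0.63 against Ctrl and was not called against OVA (0.52, below the fold threshold).

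**Figure D5:**
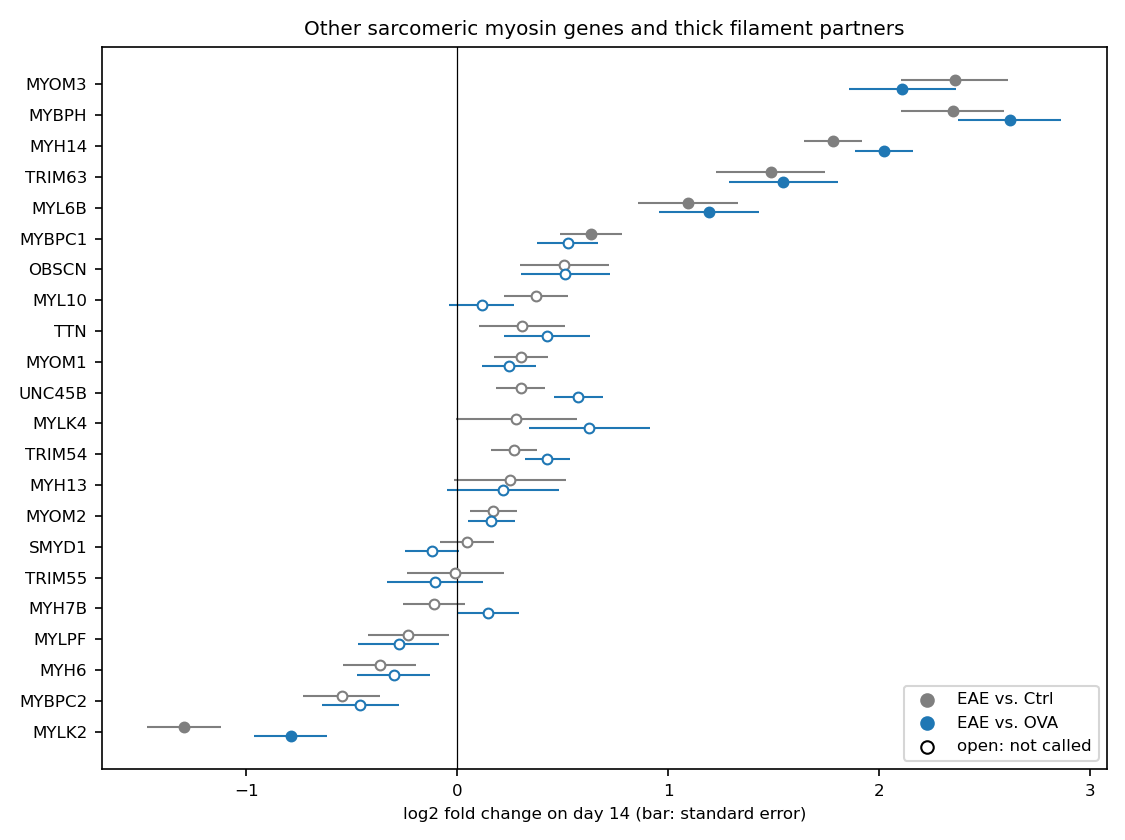
Log2 fold changes with SE on day 14 of the 22 tested sarcomeric myosin genes and thick filament partners outside the 10 genes, for EAE against Ctrl (grey) and against OVA (blue); open points were not called. MYOM3, MYBPH, MYH14, TRIM63 and MYL6B are called higher and MYLK2 lower in both comparisons.

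Among 9 other fast fibre genes, 0 were called higher and 5 lower against Ctrl, and 0 higher and 4 lower against OVA, with medians of −0.82 and −0.53. They were PVALB, the calcium buffer parvalbumin (log2 fold changes −1.47 and −1.09), CASQ1, the calcium store protein calsequestrin (−1.24 and −0.96), TNNC2, fast troponin C (−0.93 and −0.67), and MYOZ1, a Z-disc protein of fast fibres (−0.85 and −0.75), with TPM1 (−0.82) against Ctrl. The call of TNNC2 against OVA was kept in 15 of 23 alternative settings. Among 9 other slow fibre genes, 2 were called higher and 2 lower in each comparison. TNNC1, slow troponin C, fell (−1.02 and −0.93), as did TPM3, slow tropomyosin (−0.85 and −0.71). CAR3, a carbonic anhydrase abundant in slow fibres, rose (2.14 and 1.61), as did CSRP3, the muscle LIM protein (1.92 and 1.93).

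Other developmental muscle genes were also divided. Of 9 listed, 7 had a row and 6 were tested, with 4 called higher and 1 lower in each comparison. CHRNG, the fetal subunit of the acetylcholine receptor, rose by 3.01 and 3.64, from 1.09 RPKM in Ctrl to 10.6 in EAE mice. NCAM1, an adhesion molecule of developing and denervated fibres, rose by 2.49 and 2.45, CDH15 (M-cadherin) by 0.97 and 1.24 and TNNT2, the cardiac troponin T of embryonic muscle, by 0.71 and 0.71. ACTC1, the cardiac actin of developing muscle, fell (−2.61 and −1.94), from 250 ± 108 RPKM in Ctrl to 38.2 ± 4.83 in EAE mice, and so moved opposite to MYL4.

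Among 25 regulators of muscle fibre type, 9 were called higher and 1 lower of 23 tested against Ctrl, and 6 higher and 0 lower of 22 against OVA. MYOG (myogenin) rose by 4.10 and 3.98, from 10.1 ± 1.33 RPKM in Ctrl to 207 ± 122 in EAE mice. HDAC4, a deacetylase that acts after loss of nerve activity, rose by 2.27 and 2.09, and MYOD1 by 1.90 and 1.53. MYF6 rose by 1.72 against Ctrl and 1.86 against OVA. MEF2A rose by 2.00 against Ctrl and NFATC4 fell against Ctrl (−0.63), and neither was among the genes called against OVA. Of 8 non-muscle and smooth muscle myosin genes, 2 rose and 0 fell in each comparison, the regulatory light chains MYL12A (2.40 and 2.15) and MYL12B (1.5 and 1.56). Between OVA and Ctrl mice on either day, and in both EAE comparisons of day 40, limma called 0 genes of these 6 lists.

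The tissue carried its defining markers, and other cell types differed between the groups. All 6 markers of skeletal muscle fibres were above 3 RPKM in every group, but on day 14 their sum was 23799 to 26776 RPKM in EAE mice, below every Ctrl mouse (28481 to 34909) and every OVA mouse (27095 to 30836). The single markers were divided: 1 was called higher, 1 lower and 4 not against Ctrl, and 0 higher, 1 lower and 5 not against OVA. Of 5 heart markers, MYH6 was at 20.8 to 55.8 RPKM over the 30 mice, while NPPA, NPPB, MYBPC3 and TNNI3 reached at most 0.566, 0.133, 0.130 and 1.66 RPKM, which bears on MYL2, MYL3 and MYL4 as genes also used in the heart. Summed markers of satellite cells, the stem cells of muscle, were 16.4 to 24.6 RPKM in EAE mice on day 14 and at most 11.0 in Ctrl and OVA mice of that day, with only CDH15 of 4 above 3 RPKM. On that day the median of 5 summed neutrophil markers was 6.61 RPKM in Ctrl, 156 in OVA and 216 in EAE mice. Between EAE and OVA mice, 1 of these 5 was called higher and 4 were not called, with a median log2 fold change of −0.86. The median of 5 summed fibroblast markers was 1098 RPKM in Ctrl, 733 in OVA and 386 in EAE mice. Markers of erythrocytes (4 of 4) and of tendon (4 of 5, with 1 higher) were called lower in EAE mice in both comparisons of that day. The part of these cells in the levels of the light chains was not tested. Fold changes also varied with length: on day 14 the median log2 fold change against Ctrl was −0.17 in 228 genes with under 1000 bases of exons and 0.26 in 3524 genes with more than 5000. By all annotated exons, MYL2, MYL3 and MYL4 have 1950, 2044 and 4637 bases and lie in neither class, while the 6 heavy chains have 6016 to 11772. The longest protein-coding transcripts of these 3 light chains have only 889, 937 and 943 bases, under the limit of the short class. The correction for exon length used all annotated exons and not these transcript lengths. The 3 light chains were called in both EAE comparisons of day 14 with fold changes corrected for exon length.

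Across the 30 mice, the genes whose log2 levels followed 8 of the isoforms most closely among 9039 genes are given as a description, since the mice share groups and depth. MYH7 was followed by its heart paralog MYH6 (Pearson r = 0.94), with which it shares stretches of transcript sequence, by the slow calcium pump ATP2A2 (0.90) and by SPTAN1 (0.73). MYL3 was followed by IDH2, TPM3 and LDHB (each 0.92) and MYL2 by TNNC1 (0.94), TPM3 (0.88) and TNNT1 (0.87), a pair of isoforms added here after their values were seen. MYH4 was followed by REEP1 (0.88), CCDC6 (0.88) and PCNT (0.86), and MYH2 by NFE2L1 (0.86), MYH10 (0.85) and ACTN2 (0.84). MYL4 was followed by VPS36 (0.95), REXO2 (0.94) and the proteasome subunit PSMA7 (0.94). MYH8 was followed by SH2B3, ALKBH5 and TLN2 (each 0.86), and MYH3 less closely by SLC12A4 (0.67) and ABCA7 (0.66).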

How the data were processed

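RNA from the EDL was selected for poly(A) and sequenced as directional paired-end libraries. According to the labels and methods, the authors aligned reads to mm10 with Subread and counted them over RefSeq transcripts with featureCounts. The deposited values are log2(RPKM + 1), with 0.0001 where no read was counted (25.8% of values). This scale was inferred: RPKM times exon length sums to near 1000000 per library, and the sum was 1384480 to 1498140 on this scale against 171078 to 201015 if the values were RPKM. They were turned back into RPKM, and depth was estimated from the steps between low values. Tests used limma 3.58.1 in R 4.3.3 with a variance trend, on log2(RPKM + 0.1), since the deposited values are not counts; fold changes are on that scale, which understates low genes. The 15 mice of 1 day entered 1 model, and comparisons of days used all 30. Genes needed a mean above 3 RPKM in 1 compared group. All 10 myosin genes passed in every comparison. A gene was called at a fold change above 1.5 with its Benjamini-Hochberg adjusted p under 0.05. The scripts were tested on simulated data. All 10 genes were tested in each comparison, but not every fold change is given in the text. Of each list, up to 4 called genes in each direction were named. MYL6B, MYBPC1 and TPM1, the value of MYF6 against Ctrl, and the ratios between genes were added after their values were seen. Sequences, positions and lengths came from RefSeq and GENCODE on GRCm38, to which all 10 genes matched. The members and lists were chosen with earlier results of these data known. Alternatives covered scaling, pseudocount, filter, model, replicate block, each mouse left out and, chosen after seeing the data, exon length. Mice of the same number were not paired by the labels, and their deviations correlated at −0.72 to 0.70.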

Additional observations from a re-analysis of the deposited data

Results flagged for a closer look

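Of 60 sets of 5 mice (10 genes in 6 groups), 5 had 1 mouse far from the other 4 by Dixon's test, which chance gives for about 1 in 20 sets. EAE mouse 5 of day 40 was highest for MYH3 (7.48 RPKM), MYH7 (173 RPKM) and MYL3 (383 RPKM). Ctrl mouse 3 of day 40 was highest for MYH8 (80.3 RPKM), and OVA mouse 5 of day 14 for MYL2 (713 RPKM).

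The difference between EAE and the other groups was not the same on day 14 and day 40 for 3 light chains, by the interaction term in limma over 30 mice. On the log2 scale it changed by 1.74 relative to Ctrl and 1.95 relative to OVA for MYL3, by 0.89 and 1.02 for MYL2, and by −1.10 and −1.17 for MYL4. The differences in MYL3 and MYL4 were seen on day 14 and not on day 40, where the adjusted p was at least 0.606 for each against both groups.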

How the results depend on the processing

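The calls of MYL2, MYL3 and MYL4 on day 14 were kept under all 23 alternatives in each comparison: the log2 fold change ran from −1.85 to −1.43 (Ctrl) and −1.93 to −1.52 (OVA) for MYL3, from −0.94 to −0.65 and −0.91 to −0.63 for MYL2, and from 1.03 to 1.29 and 1.12 to 1.48 for MYL4. Over all comparisons, 952 fold changes of single genes under other settings kept their direction and their side of the threshold, 24 changed direction, 3 gained a call and 1 lost it; with 1 mouse left out, 932 kept both, 61 changed direction and 7 gained a call. Each fold change that changed direction was uncalled and its cause was not tested.

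With quantile normalization these were, for EAE against Ctrl on day 14, MYH4 (0.41) and MYL1 (0.038); for OVA against Ctrl on day 14, MYL2 (0.015); for EAE against Ctrl on day 40, MYH3 (0.095), MYL1 (−0.060), MYL2 (−0.057) and MYL3 (−0.014); for EAE against OVA on day 40, MYH2 (−0.043), MYH3 (0.018) and MYL1 (−0.044); and for the change of the EAE against Ctrl difference between the days, MYL1 (−0.11). In that change, quantile normalization also gave a call to MYH1 (−0.68 relative to Ctrl and −0.73 relative to OVA) and took that of MYL2 relative to Ctrl (0.59). Scaling by median ratios turned MYH3 for EAE against Ctrl on day 40 (0.0063), and moved the median log2 fold change of all genes for EAE against Ctrl on day 14 from 0.11 to 0.0079. Correction for exon length, chosen after seeing the data, moved MYH7 on day 14 to −0.45 against Ctrl and −0.44 against OVA, and turned MYH1 (−0.014) and MYH4 (−0.011) for EAE against OVA on day 14, MYH7 (−0.016) and MYL2 (0.044) for OVA against Ctrl on day 14, MYH1 (0.082), MYH3 (0.085) and MYL1 (−0.042) for EAE against Ctrl on day 40, MYH3 (0.0061) and MYL1 (−0.0050) for EAE against OVA on day 40, and MYH2 (0.048), MYH4 (0.050) and MYH7 (0.20) for the change of the EAE against Ctrl difference.

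Leaving out 1 mouse at a time gave log2 fold changes of both signs as follows. For EAE against Ctrl on day 14 the range was −0.10 to 0.17 for MYH4. For OVA against Ctrl on day 14 it was −0.083 to 0.27 for MYH2, −0.16 to 0.079 for MYH3, −0.059 to 0.25 for MYH7, −0.39 to 0.15 for MYH8, −0.026 to 0.27 for MYL1, −0.14 to 0.066 for MYL2, −0.020 to 0.17 for MYL3 and −0.32 to 0.036 for MYL4. For EAE against Ctrl on day 40 it was −0.12 to 0.024 for MYH1, −0.22 to 0.058 for MYH3, −0.022 to 0.070 for MYL1, −0.12 to 0.26 for MYL2, −0.13 to 0.19 for MYL3 and −0.054 to 0.15 for MYL4. For EAE against OVA on day 40 it was −0.0080 to 0.12 for MYH2, −0.25 to 0.015 for MYH3, −0.017 to 0.074 for MYL1 and −0.028 to 0.18 for MYL4. For OVA against Ctrl on day 40 it was −0.020 to 0.17 for MYH2, −0.13 to 0.15 for MYH3, −0.031 to 0.032 for MYL1, −0.38 to 0.0045 for MYL2 and −0.069 to 0.058 for MYL4. For the change of the EAE against OVA difference it was −0.21 to 0.23 for MYH7. The number of the 10 genes called for EAE against Ctrl on day 40 was 0 to 1: without Ctrl mouse 4, MYH8 was called (−0.78). Without Ctrl mouse 3, the highest for MYH8, its value was −0.33. MYH8 was also called in the change of the EAE against Ctrl difference without Ctrl mouse 4 or 5 or EAE mouse 1 of day 14, or without Ctrl mouse 1, 2 or 4 of day 40 (−1.17 to −1.32).

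With the replicate number as a block, MYL3 for EAE against Ctrl on day 14 stayed at −1.67, and the numbers of the 10 genes called were 3, 3, 0, 0, 0 and 0 in the 6 comparisons of groups on 1 day; MYH8 was called in the change of the EAE against Ctrl difference (−1.09). No other call among the 10 genes changed. The labels do not pair same-numbered mice. At most 3 of 5 such pairs correlated above 0.1 in any comparison, with values up to 0.70 for EAE against OVA on day 14. These correlations cannot settle whether mice were paired. Counts over all genes moved more on day 40, from 40 for EAE against Ctrl to between 0 and 229, and from 18 for EAE against OVA to between 0 and 55. On day 14 the highest counts, 4195 against Ctrl and 3390 against OVA in place of 2318 and 1762, came without the fold threshold. Of the other genes named on day 14, TNNC2 lost its call against OVA in 8 of 23 alternatives, 5 of them with 1 mouse left out (EAE mouse 2, 4 or 5, OVA mouse 1 or 5; lowest log2 fold change −0.77, highest −0.43). TNNT2 lost it with correction for exon length (both comparisons) and without OVA mouse 3, MYOZ1 and TPM1 with quantile normalization, and NFATC4 with larger pseudocounts and without Ctrl mouse 4. MYBPC1 lost its call against Ctrl with correction for exon length, with scaling by median ratios, and without Ctrl mouse 1 or EAE mouse 4. No other named gene of these lists lost a call, and none changed direction.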
